A study of Mus musculus with 62 samples.

Results

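The comparison described here is that of ChREBP knockout and floxed control mice after 3 months on a high-fructose diet (HFrD), read by RNA-seq of the gastrocnemius muscle (GC). It rests on 8 of the 62 libraries of the series, 4 from muscle-specific ChREBP knockout mice (ChMKO; mice C291, C293, C299 and C309) and 4 from littermates that carried the floxed allele without the Cre transgene (F/F; mice C292, C294, C301 and C310). The members are the genes with a mean FPKM (fragments per kilobase of gene length, scaled to the sequencing depth) of at least 0.5 over the 8 libraries, which left 10515 of 21936 gene symbols. Both groups carried loxP sites around exon 8 of Mlxipl, the gene of ChREBP, and ChMKO mice additionally carried MCK-Cre, which is driven by the muscle creatine kinase promoter and so acts in muscle fibers rather than in the other cells of the tissue. Both groups ate a diet in which fructose supplied 68% of the calories, and the mice were males of 8 to 10 weeks when they entered the experiment, the age given in the methods for mice without another statement. The 8 libraries hold no mice on another diet, so they show the genotype on the diet and not the effect of the diet itself. Each library was 1 mouse.

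ChREBP is a transcription factor that is activated by the products of glucose and fructose metabolism and binds, together with its partner Mlx, to carbohydrate response elements built of E-boxes. In liver and intestine it drives the genes of glycolysis, fructolysis and lipogenesis. Its paralog MondoA, encoded by Mlxip, is a glucose-sensing factor that is abundant in skeletal muscle and shares the partner Mlx. Excision of exon 8 is the lesion that all results below rest on, and the exon is therefore shown here from the transcript sequence of GENCODE vM21, which places it at chr5:135128513-135128697 of GRCm38, plus strand. Exon 8 of 17 is coding throughout. The exon is in capitals, and the last 20 bases of exon 7 and the first 20 bases of exon 9 are in lower case.

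Mlxipl exon 8: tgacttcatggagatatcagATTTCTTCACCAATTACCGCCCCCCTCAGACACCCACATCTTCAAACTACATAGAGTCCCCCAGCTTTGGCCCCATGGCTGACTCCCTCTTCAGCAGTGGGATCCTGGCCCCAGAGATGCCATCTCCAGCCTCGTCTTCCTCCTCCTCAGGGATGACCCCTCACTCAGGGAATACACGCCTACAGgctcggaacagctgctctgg

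The exon is 185 bases long, which leaves a remainder of 2 after division by 3, so that its loss shifts the reading frame. When exon 7 is joined to exon 9 in the annotated transcript, 300 codons are read before the missing exon and 17 more after the junction until a stop codon in exon 9. Exon 8 makes up 5.11% of the 3622 bases of the transcript. A transcript that only lacks exon 8 therefore still counts almost in full towards the FPKM of Mlxipl, and the level of the whole gene measures transcript abundance rather than excision.

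Mlxipl (ENSMUSG00000005373) was the gene that separated the genotypes most clearly. Its level in the F/F mice C292, C294, C301 and C310 was 9.25, 8.19, 8.77 and 10.8 FPKM. In the ChMKO mice C291, C293, C299 and C309 it was 4.43, 4.49, 4.42 and 4.25 FPKM. All 4 knockout libraries lay below all 4 control libraries, and the knockouts were close together. The mean fell from 9.26 ± 1.13 to 4.40 ± 0.102 FPKM (SD, n = 4), which is 47.5% of the control level, and the log2 fold change was -0.92 and its standard error 0.0732 (limma, adjusted p = 0.00307). In a bulk sample the transcripts that remain in ChMKO muscle cannot be assigned to fibers or to other cells, and fewer cells of a type cannot be told apart from less RNA per cell. Mlxip did not differ beyond the spread between mice, with 13.7 ± 0.677 FPKM in the controls and 13.7 ± 2.01 FPKM in the knockouts (SD, n = 4). Mlx, the common partner, was at 3.50 ± 0.462 and 3.91 ± 0.0964 FPKM (SD, n = 4), a log2 difference of 0.13 (standard error 0.0730) that did not pass the test. On the per-length scale of FPKM, Mlxip was thus present at a higher level than Mlxipl in every one of the 8 libraries. In the separate table of chow-fed GC the order was the reverse, with Mlxipl at 24.9 and Mlxip at 16.1 FPKM in F/F and 15.7 and 14.6 FPKM in ChMKO (means, n = 5).

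Before the other genes, the state of the libraries is given. Between 17227122 and 23459142 reads were recovered per library from FPKM and gene length, and the correlation of log2(FPKM + 1) across genes was 0.991 to 0.995 within groups and 0.990 to 0.995 between them, where genes are not independent replicates. In a principal component analysis of the 8 libraries the first component held 24.1% of the variance and did not separate the genotypes (exact permutation test, two-sided, p = 0.514), and the second held 18.8% (exact p = 0.0571, where the smallest p that 4 against 4 allows is 0.0286). The libraries that stood apart were ChMKO C309 on the first component and F/F C310 on the second. Defining markers of fast skeletal muscle were high in all libraries, with Ckm, the muscle creatine kinase, at 2423 to 2833 FPKM.

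Few genes differed between the genotypes. By the criterion of the study, a log2 fold change of 1 or more in either direction with an unadjusted p under 0.05, 2 of 10515 genes differed (0.0190% of the genes tested), and both, Trim63 and Ddit4, were higher in ChMKO. After Benjamini-Hochberg adjustment a different pair passed at 0.05 (0.0190%), Mlxipl and Dysf. At an unadjusted p under 0.05, 305 genes were higher (2.90%) and 469 lower (4.46%) in ChMKO, and in 160 (1.52%) and 310 genes (2.95%) the 4 values of ChMKO lay all above or all below those of F/F. Lower genes did not outnumber higher ones in every setting, with 82 higher and 61 lower in one fit of all 24 libraries and 458 and 428 without ChMKO C299. The median log2 difference of all genes tested was -0.01. Those percentages are the background for each group of genes below. The 2 genes past both limits became 8 with a pseudocount of 0.1 in place of 1 and 10 with voom on the recovered reads, where Mlxipl, Mt1, Slc15a5 and Wfdc17 were among the genes added in both, and between 1 and 8 when single libraries were left out. The pair itself was not kept throughout. Trim63 dropped below the fold limit without ChMKO C291 (log2 0.89), without ChMKO C293 (0.999) and without F/F C294 (0.97). Ddit4 did so without F/F C294 (log2 0.93), without ChMKO C309 (0.99), without F/F C310 (0.85) and without both C309 and C310 (0.80).

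**Figure D1:**
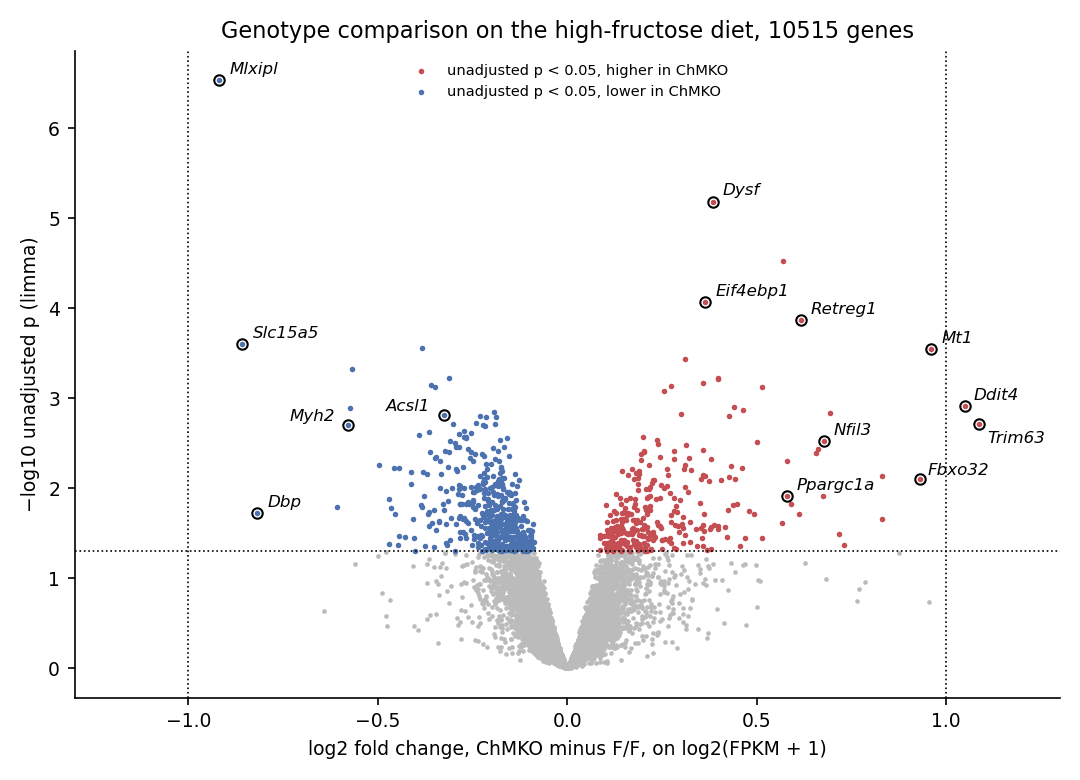
Genotype comparison on the high-fructose diet, with the log2 fold change of ChMKO over F/F on log2(FPKM + 1) on the x axis and the negative log10 of the unadjusted limma p on the y axis, for 10515 genes. Red and blue points are the 305 higher and 469 lower genes with an unadjusted p under 0.05, the dotted lines mark a log2 fold change of 1 in either direction and a p of 0.05, and only Ddit4 and Trim63 lie beyond both limits.

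Dysf, the gene of dysferlin on chromosome 6 (GRCm39, 83985572 to 84188042), a membrane protein needed for the repair of the muscle fiber surface, rose by a small and very even amount. Its level was 8.73, 8.0, 8.54 and 8.09 FPKM in the controls and 11.3, 11.3, 11.1 and 10.95 FPKM in the knockouts, in the order of mice given above. The groups were separated by more than the whole range of either. The log2 fold change was 0.38 and its standard error 0.0434 (limma, adjusted p = 0.0343). With any single library left out the fold change stayed between 0.37 and 0.40, while the adjusted p moved to between 0.0721 and 0.207 and so no longer passed. Several other genes had low unadjusted p-values and no overlap without passing the adjustment, and they were picked here after their values were seen. Slc15a5, a member of the family of proton-coupled peptide transporters, was at 5.604, 5.96, 4.35 and 5.30 FPKM in the controls and at 1.75, 1.94, 3.26 and 3.16 FPKM in ChMKO (log2 difference -0.86, adjusted p = 0.369). Retreg1, a receptor for the autophagy of the endoplasmic reticulum, was at 90.2 ± 6.73 and 139.8 ± 22.3 FPKM (SD, n = 4; log2 difference 0.62). Mybpc1, which encodes the slow isoform of myosin-binding protein C, was at 418 ± 55.7 and 282 ± 46.8 FPKM (SD, n = 4; log2 difference -0.57).

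Both genes past the criterion of the study belong to the list of muscle atrophy genes and targets of FoxO transcription factors. FoxO factors are held in check by insulin signaling and, when active in muscle, drive the ubiquitin ligases that mark fiber proteins for degradation and the genes of autophagy. Of 24 members tested, 7 were higher at an unadjusted p under 0.05 (29.2% of the list, beside 2.90% of all genes) and none was lower. The median log2 difference of the list was 0.20 beside -0.01 over all genes, 19 members were positive and 5 negative, and 5 of the 7 did not overlap between genotypes (1.52% of all genes were higher without overlap). None of the 7 passed the adjustment over all genes, and the list was written with earlier results of these data known, so its count is a description. Without ChMKO C299 it was 11 members, and without any of the other single libraries 7 or 8.

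Trim63 encodes MuRF1, the ubiquitin ligase that targets myosin and other thick-filament proteins. Its level was 195, 110, 150 and 119 FPKM in the controls and 452, 357, 201 and 243 FPKM in the knockouts. The lowest knockout, mouse C299, lay just above the highest control, mouse C292, and the spread between knockouts was wide. The log2 fold change was 1.09 and its standard error 0.257 (limma, unadjusted p = 0.00192, adjusted p = 0.558). Fbxo32, the gene of atrogin-1, the other classic ligase of atrophy, was at 100.7, 74.8, 82.1 and 51.7 FPKM in the controls and at 163, 227, 87.2 and 133 FPKM in ChMKO (log2 difference 0.93, standard error 0.278). Here mouse C299 fell within the range of the controls, so the groups overlapped. Mouse C299 was the lowest knockout for both ligases.

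The promoter of Trim63 is shown because it is the one promoter among the called members of this list that holds a forkhead motif. The window is the 250 bases before the transcription start in RefSeq on GRCm38.p6, chr4:134314870-134315119, plus strand. Capitals mark a glucocorticoid receptor half-site (AGAACA, here on the minus strand as TGTTCT, at -200 to -195) and directly after it a forkhead motif (GTAAACA, here as TGTTTAC, at -194 to -188), counted from the start site.

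Trim63 promoter: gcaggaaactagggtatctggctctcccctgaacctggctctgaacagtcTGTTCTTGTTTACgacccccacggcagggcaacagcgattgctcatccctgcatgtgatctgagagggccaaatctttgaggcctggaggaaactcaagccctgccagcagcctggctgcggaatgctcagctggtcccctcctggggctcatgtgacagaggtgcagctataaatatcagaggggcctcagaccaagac

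Both strands were searched, and 3.17% of the 32851 windows of the same length in the promoter table hold the forkhead letters and 16.1% the half-site. Of the 7 members that were higher, 5 had an entry in the table (Fbxo32 and Eif4ebp1 did not), and 1 of the 5 held the forkhead motif. A match says that the letters are present, not that a factor is bound there.

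The other higher members of the list act on growth and protein synthesis or on metal and protein stress. Ddit4 encodes REDD1, an inhibitor of mTORC1 that is induced by glucocorticoids, fasting and stress. Its level was 62.3, 31.4, 50.8 and 26.3 FPKM in the controls and 82.2, 78.1, 83.5 and 95.0 FPKM in the knockouts. All knockouts lay above all controls, and here the controls were the more variable group (42.7 ± 16.8 against 84.7 ± 7.26 FPKM, SD, n = 4). The log2 fold change was 1.05 and its standard error 0.232 (limma, adjusted p = 0.545). Eif4ebp1, the gene of 4E-BP1, which holds back cap-dependent translation and is itself a target of mTORC1, was at 8.46, 8.62, 8.67 and 7.82 FPKM in the controls and 11.4, 10.7, 10.3 and 11.9 FPKM in the knockouts. This difference was small but even in all mice (log2 0.36, standard error 0.0559, adjusted p = 0.223). Mt1, a metal-binding metallothionein, was at 8.88, 6.43, 11.5 and 8.55 FPKM in the controls and 13.0, 20.7, 18.2 and 20.6 FPKM in the knockouts, without overlap (log2 0.96, standard error 0.173, adjusted p = 0.369). Cdkn1a, which encodes the cell-cycle inhibitor p21, was at 4.46 ± 1.13 and 7.61 ± 1.76 FPKM (SD, n = 4; log2 0.66) with 1 knockout inside the control range. Sqstm1, the autophagy receptor p62, was at 144 ± 8.23 and 164 ± 9.13 FPKM (SD, n = 4; log2 0.19) without overlap.

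Upstream of this group, Foxo1 was at 5.88 ± 1.502 and 7.72 ± 3.16 FPKM and Foxo3 at 5.25 ± 0.868 and 6.25 ± 1.01 FPKM (SD, n = 4), and neither difference passed the test. Of the list members known as glucocorticoid targets, Ddit4 is described above, and Fkbp5, Klf15, Tsc22d3 and Per1 did not pass. Fkbp5 was at 9.12 ± 1.23 and 13.6 ± 5.24 FPKM and Klf15, a glucocorticoid-induced factor of amino acid breakdown, at 15.1 ± 1.91 and 17.9 ± 2.80 FPKM (SD, n = 4). Tsc22d3, the gene of GILZ, and the clock gene Per1 had log2 differences of 0.17 and -0.08. Cebpd, a transcription factor outside the list that was looked at after its value was seen, was at 4.84 ± 1.48 and 9.46 ± 3.45 FPKM (SD, n = 4; log2 0.83) without overlap. Mstn, the gene of myostatin, a secreted brake on muscle growth from the list of myogenesis genes, was at 61.04 ± 12.5 and 78.0 ± 9.95 FPKM (SD, n = 4), a log2 difference of 0.36 with an unadjusted p of 0.0298. Of the 15 myogenesis genes tested, 2 were higher, the other being the satellite cell factor Myf5 at under 1.2 FPKM in all libraries. Neither call was stable, since the list had 0 without ChMKO C309, without F/F C292 and without F/F C310 (limma, unadjusted p under 0.05), and 1 without any of ChMKO C291, C293 and C299 or F/F C294.

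**Figure D2:**
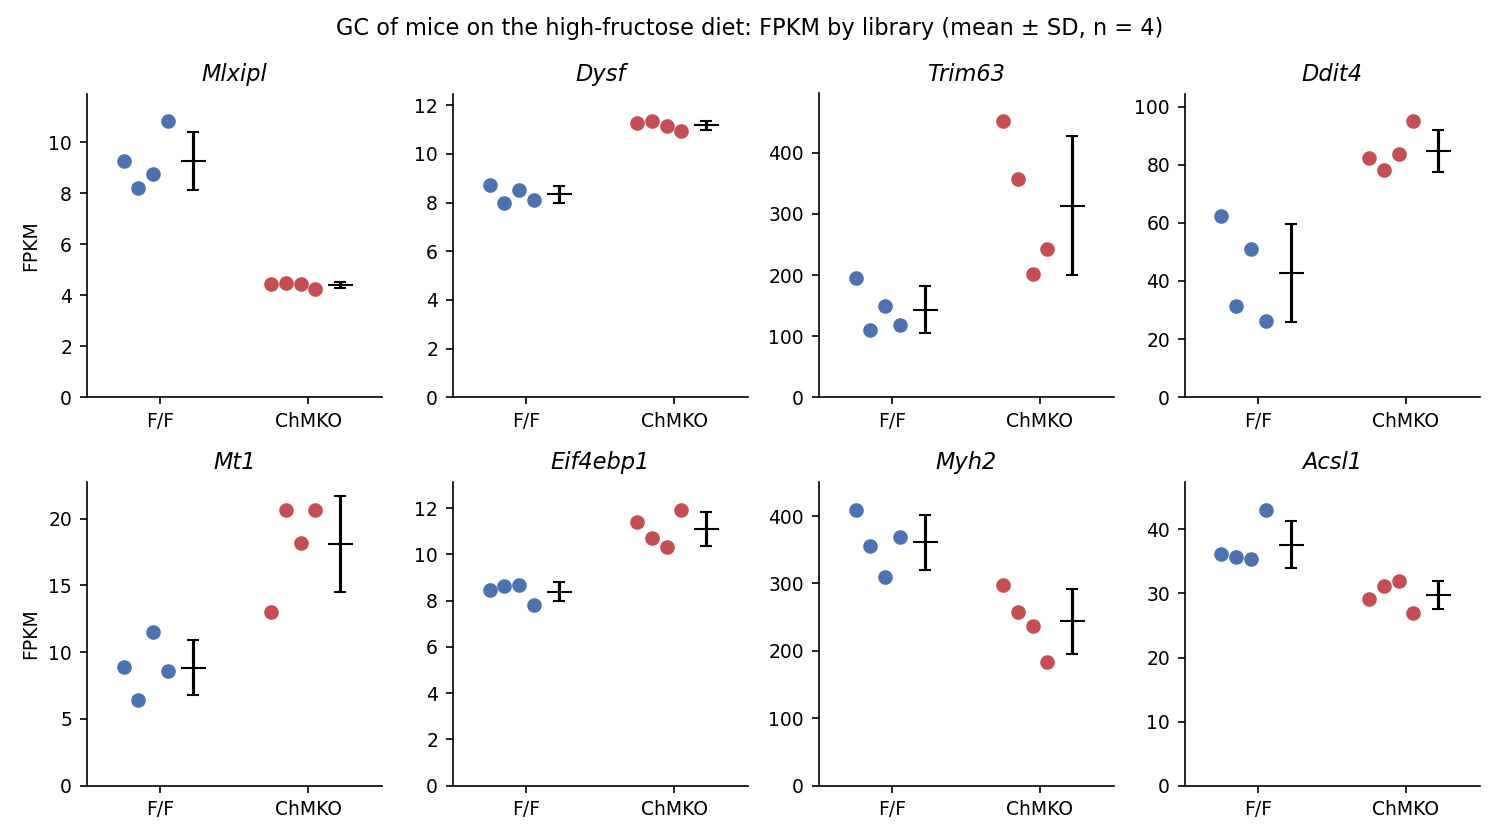
FPKM (y axis, linear from 0) of 8 genes in the 4 F/F (blue) and 4 ChMKO (red) libraries on the high-fructose diet, where each point is 1 mouse, in the order of mouse numbers, and the bar is the mean with its SD. The genotypes do not overlap in any of the 8 panels. The standard error of the log2 fold change is smallest for Dysf and next for Eif4ebp1, and Trim63 in ChMKO is the most spread in FPKM, from 201 to 452 FPKM.

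Fiber type was followed through the sarcomere genes. Adult mouse fibers are typed by their myosin heavy chain, slow by Myh7 and fast by Myh2 (type IIa), Myh1 (IIx) and Myh4 (IIb), and the GC is mostly of the last kind. Myh2 was at 410, 356, 309.6 and 368.5 FPKM in the controls and 297, 258, 236 and 183 FPKM in the knockouts. Every knockout lay below every control (log2 difference -0.58, standard error 0.137, unadjusted p = 0.00196, adjusted p = 0.558). As a share of the summed FPKM of the 4 adult myosins, Myh2 was 3.43% ± 0.479 in F/F and 2.21% ± 0.401 in ChMKO (SD, n = 4; exact permutation test, two-sided, p = 0.0286, adjusted over the 4 genes 0.0571). The share of Myh4 was 91.7% ± 1.18 and 94.2% ± 1.07 (SD, n = 4; exact p = 0.0286, adjusted 0.0571). Myh1, at 496 ± 129 and 372 ± 73.2 FPKM (SD, n = 4), had a log2 difference of -0.40 with an unadjusted p of 0.0494. These shares are not independent of each other, since they sum to the whole.

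Of the slow fiber genes 0 of 14 tested members had an unadjusted p under 0.05 in either direction (limma; none adjusted), although 12 of 14 differences were negative and their median was -0.18. The sign and the size rested on single mice. Without ChMKO C291 the median was -0.39 and 2 were lower at an unadjusted p under 0.05. Without ChMKO C309, 12 of 14 were positive, the median was 0.17 and 2 were higher at an unadjusted p under 0.05, the slow myosin light chain Myl3 (log2 0.32) and the muscle LIM protein Csrp3 (log2 0.23). Myh7 was at 24.6, 22.4, 22.1 and 16.1 FPKM in the controls and 33.2, 22.0, 21.5 and 7.23 FPKM in the knockouts, where mouse C309 was below and mouse C291 above all controls. The slow troponin T gene Tnnt1 followed the same order, with 50.6 to 67.1 FPKM in the controls and 88.9, 64.7, 57.5 and 19.4 FPKM in the knockouts. Tnnc1 was at 22.2 and Tnni1 at 3.34 FPKM in mouse C309, beside 53.9 to 68.5 and 9.62 to 11.4 FPKM in the controls. The summed FPKM of the list ranged from 521 to 741 in F/F and from 292.1 to 835 in ChMKO. Among the 15 fast fiber genes tested, Actn3, Tpm1 and Mybpc2 were higher in ChMKO (log2 differences 0.16, 0.14 and 0.14) and Myh2 and Myh1 lower at an unadjusted p under 0.05. Without C309 the higher ones were 0 (limma; none adjusted) and the lower 1, and Myh2 stayed between -0.68 and -0.45 with any single library left out. The fast troponins Tnni2 (3287 ± 95.7 and 3209 ± 140 FPKM) and Tnnt3 (11861 ± 309.2 and 12252 ± 394 FPKM; SD, n = 4) differed by less than the spread between mice. Tnnc2 is listed at no more than 1.77 FPKM in any library of the table, far under the other fast troponins. Its difference is not read here, but Tnnc2 was not removed from the counts. At a mean of at least 5 FPKM 14 of the 15 fast genes remained, with 3 higher and 1 lower (limma, unadjusted p under 0.05).

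The lists of fatty acid oxidation and mitochondrial energy metabolism had more lower than higher members in ChMKO, by small amounts and with none past the adjustment. Fatty acids are activated in the cytosol, broken down by the beta-oxidation enzymes of the mitochondrion and fed through the electron-transferring flavoproteins into the respiratory chain. Of 42 genes of fatty acid uptake and oxidation tested, 17 were lower (40.5%, beside 4.46% of all genes) and 2 higher at an unadjusted p under 0.05, with a median log2 difference of -0.11. Acsl1, which activates long-chain fatty acids, was at 36.2, 35.7, 35.5 and 43.1 FPKM in the controls and 29.1, 31.1, 31.9 and 27.0 FPKM in the knockouts. Every knockout lay below every control, by a log2 difference of -0.33 (standard error 0.0743, adjusted p = 0.545). Decr1, a reductase for unsaturated fatty acids, was at 40.4 ± 2.83 and 33.8 ± 2.62 FPKM (SD, n = 4; log2 -0.25). Etfa, an electron-transferring flavoprotein subunit, was at 106.5 ± 5.33 and 91.1 ± 6.78 FPKM (SD, n = 4; log2 -0.23), and Acaa2, the thiolase of the last step, at 89.9 ± 8.01 and 71.4 ± 9.17 FPKM (SD, n = 4; log2 -0.33). These 4 genes did not overlap between genotypes. The largest of the lower differences were those of Fabp3, a fatty acid-binding protein of oxidative muscle (log2 -0.47), and Plin5, which coats lipid droplets next to mitochondria (log2 -0.45). The 2 higher genes were the uncoupling proteins Ucp3 (log2 0.34) and Ucp2 (log2 0.17). The higher count was 0 without ChMKO C309 or F/F C292 and in one fit of all 24 libraries (limma, unadjusted p under 0.05). It was 1 without any one of ChMKO C291 or F/F C294 and C301, and 4 without ChMKO C299. No gene of the list passed the adjustment.

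In the pyruvate and TCA cycle list 6 of 25 genes were lower (24%, beside 4.46% of all genes) and 1 higher (4%, beside 2.90%) at an unadjusted p under 0.05. The median was -0.09 and 24 of 25 differences were negative. Lower without overlap were 8 of the 25, beside 2.95% of all genes. Mpc1, a subunit of the mitochondrial pyruvate carrier, was at 4.596 ± 0.401 and 3.81 ± 0.312 FPKM (SD, n = 4), Dld, the shared dehydrogenase subunit, at 101.2 ± 1.39 and 94.9 ± 1.72 FPKM, and Sucla2 at 133 ± 2.30 and 125 ± 3.16 FPKM, all without overlap. The 1 higher gene was Pdk4, the kinase that shuts pyruvate dehydrogenase during fasting and a FoxO target, at 561 ± 73.8 and 828 ± 245 FPKM (SD, n = 4; log2 0.51), with mouse C299 below all controls. The higher count of this list was 0 (limma, unadjusted p under 0.05) without any one of ChMKO C291, C293 and C309 or F/F C292, C294 and C301. In the respiratory chain and ATP synthase list 16 of 76 genes were lower (21.1%, beside 4.46% of all genes) and 0 higher (limma, unadjusted p under 0.05, none adjusted). The median was -0.08 and 72 of 76 differences were negative, and 20 genes were lower without overlap, beside 2.95% of all genes. Uqcrfs1, the iron-sulfur subunit of complex III, was at 239.9 ± 9.41 and 218 ± 4.25 FPKM, Sdhb of complex II at 117 ± 3.03 and 102 ± 8.02 FPKM, and Cox5b of complex IV at 108 ± 4.84 and 98.01 ± 2.68 FPKM (SD, n = 4). No difference in this list exceeded 0.20 on the log2 scale.

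The lower counts of these 3 lists depended on single mice. Without ChMKO C309 and F/F C310 together they were 7 of the fatty acid genes, 2 of the TCA cycle genes and 6 of the respiratory chain genes. Without ChMKO C309 alone they were 11, 3 and 11, without F/F C292 alone 7, 3 and 11, and without F/F C310 alone 10, 3 and 9. Without F/F C294 the TCA cycle count was 2. In one fit of all 24 libraries of the table they were 1, 0 and 0. The part that the low slow-fiber level of mouse C309 had in these lists was not tested beyond these counts.

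Among the regulators of the oxidative program the differences ran in both directions. Ppargc1a, the coactivator PGC-1α that drives mitochondrial genes, was at 13.8, 9.07, 12.7 and 10.6 FPKM in the controls and 11.9, 23.2, 20.3 and 16.8 FPKM in the knockouts. Its mean was higher in ChMKO (log2 0.58, standard error 0.188, unadjusted p = 0.0121, adjusted p = 0.607), with mouse C291 inside the control range. Of the 22 regulators tested, Esrrb (log2 -0.22) and Pparg (log2 -0.17) were lower at an unadjusted p under 0.05, both at under 2 FPKM. The lower count was 0 without F/F C292 and in the fit of 24 libraries (limma), 1 without any one of ChMKO C293 and C309 or F/F C301 and C310, and 3 without ChMKO C299 or F/F C294.

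**Figure D3:**
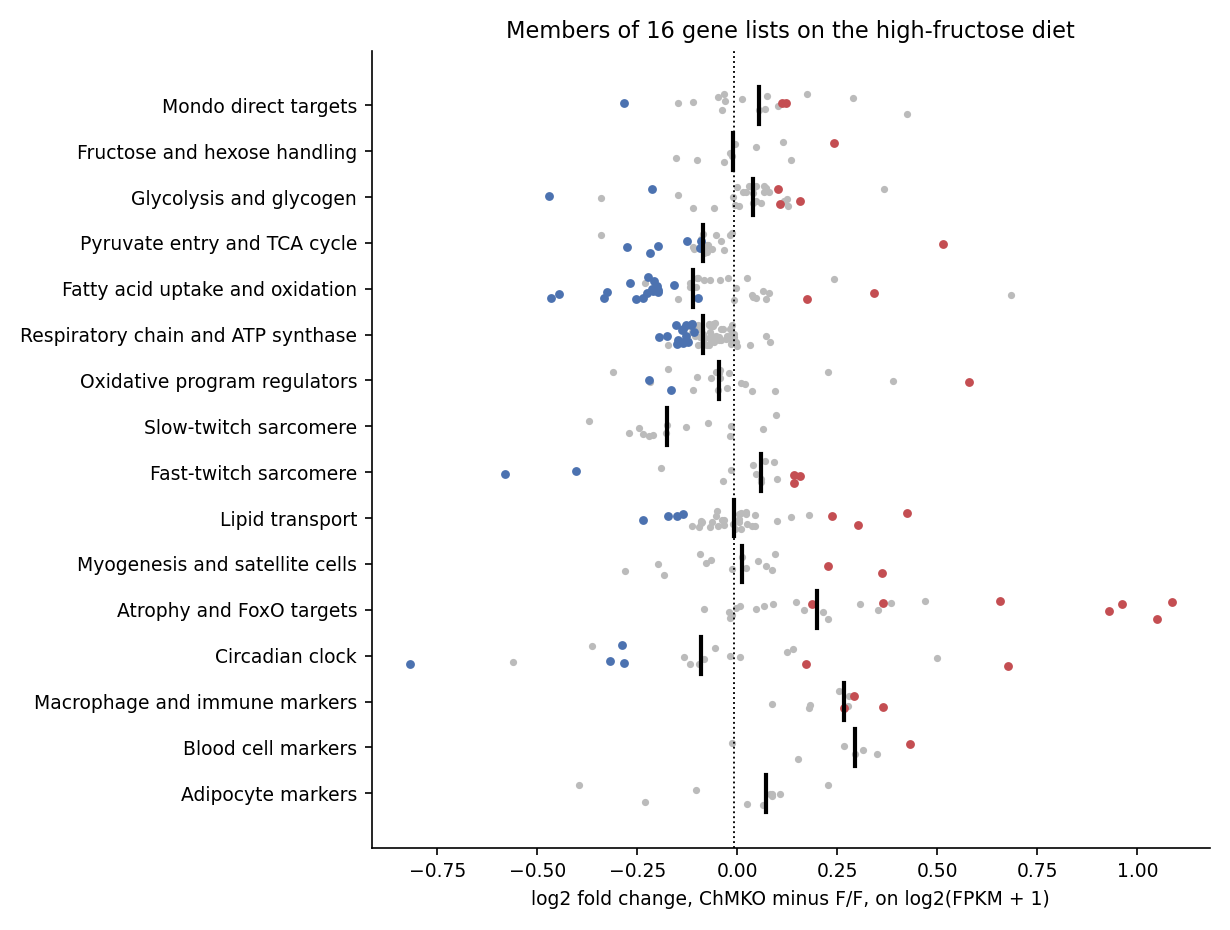
Log2 fold change of ChMKO over F/F on the high-fructose diet (x axis, log2(FPKM + 1)) for the tested members of 16 gene lists (y axis), where each point is a gene, red and blue points have an unadjusted p under 0.05, vertical bars are list medians and the dotted line is the median of all genes tested. The single gene furthest to the right is of the atrophy list, whose median of 0.20 is below those of the blood (0.29) and macrophage (0.27) lists. The points of the 3 lists of mitochondrial energy metabolism gather left of the line, with medians between -0.11 and -0.08.

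Genes that ChREBP and MondoA are known to control directly were next compared. Of 25 on the list 17 were expressed above the limit, and of these 2 were higher (Me1 and Gpd1) and 1 lower (Bhlhe40) at an unadjusted p under 0.05, with a median of 0.06. Txnip, a glucose-responsive target of MondoA and a brake on glucose uptake, was at 109, 119, 108 and 127 FPKM in the controls and 97.1, 148, 67.5 and 121 FPKM in the knockouts. The groups overlapped in full. Its close relative Arrdc4 was at 1.98 ± 0.373 and 2.10 ± 0.433 FPKM, and Fasn, the fatty acid synthase, at 1.253 ± 0.238 and 1.56 ± 0.467 FPKM (SD, n = 4). Me1, the malic enzyme that supplies NADPH, was at 97.3 ± 3.61 and 105.2 ± 2.26 FPKM (SD, n = 4), the only one of the 17 without overlap, and 1.52% of all genes were higher without overlap. Without C309 and C310 together 1 of the 17 was higher and 0 lower. The higher count was also 1 without any one of ChMKO C291 and C309 or F/F C292, C294 and C310, and 3 without ChMKO C299. One fit of all 24 libraries had 0 higher and 0 lower (limma, unadjusted p under 0.05), and without ChMKO C291 the median was -0.02. Bhlhe40, a repressor shared with the clock, was at 19.2 ± 2.66 and 15.6 ± 1.39 FPKM (SD, n = 4; log2 -0.28). E-boxes of the form CACGTG stand in the promoter windows of 4 of the 16 targets that have an entry, beside 6.02% of all windows. The same letters stand in 5 of the 21 windows of the atrophy list, and the 1 higher target with an entry does not hold them.

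In fructose handling and glycolysis the differences were small. The fructose transporter Slc2a5 was not expressed above the limit. Khk, the kinase that commits fructose to its own pathway, was at 4.50 ± 0.527 and 4.54 ± 0.514 FPKM (SD, n = 4). Of 10 fructose and hexose genes tested only the glucose transporter Slc2a3 was higher, at 2.61 ± 0.379 and 3.26 ± 0.381 FPKM (SD, n = 4; log2 0.24), and none was lower. Without any one of ChMKO C291, C299 and C309 or F/F C310 the higher count was 0 (limma, unadjusted p under 0.05). Slc2a4, the insulin-regulated transporter GLUT4, was at 114 ± 7.54 and 111 ± 3.74 FPKM, and Hk2, the main hexokinase of muscle, at 78.3 ± 9.50 and 85.8 ± 7.59 FPKM (SD, n = 4). Of 31 genes of glycolysis and glycogen, Pfkm, Pkm and Phka1 were higher by log2 differences of 0.10, 0.11 and 0.16, and Ldhb, the lactate dehydrogenase of oxidative fibers, and Gbe1, the glycogen branching enzyme, were lower by -0.47 and -0.21. Without ChMKO C309 the list had 0 higher and 1 lower, without F/F C292 or C294 it had 0 of either (limma, unadjusted p under 0.05), and without F/F C310 2 higher and 0 lower. For Ldhb mouse C309 was at 55.1 FPKM and the other knockouts at 100.4 to 104.9 FPKM, all below the 107 to 153 FPKM of the controls. Among 36 lipid transport genes 3 were higher and 4 lower, with a median of -0.01. The higher ones included the phospholipid flippase Atp8a1 (12.7 ± 0.670 and 15.1 ± 1.11 FPKM, without overlap) and the cholesterol exporter of lysosomes Npc1 (6.83 ± 1.01 and 9.62 ± 2.17 FPKM; SD, n = 4). The lower ones included the peroxisomal fatty acid transporter Abcd3 (15.4 ± 0.870 and 13.9 ± 0.442 FPKM) and the flippase Atp11b (4.35 ± 0.123 and 3.83 ± 0.301 FPKM; SD, n = 4), both without overlap. Without F/F C310 none of the list was lower at an unadjusted p under 0.05 (limma, none adjusted), and without ChMKO C293 or C309 1 was. The higher count of the list was 1 without F/F C294 and 6 without ChMKO C299. One fit of all 24 libraries had 0 lipid transport genes higher and 0 lower.

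Clock-output genes of opposite kind differed in opposite directions. Nfil3, the repressor E4BP4, was at 30.2, 28.8, 26.7 and 18.4 FPKM in the controls and 48.2, 46.6, 43.1 and 30.7 FPKM in the knockouts. All knockouts lay above all controls, with the lowest of each group in the mice C310 and C309. Dbp, an activator that competes with Nfil3 for the same sites, was at 6.63, 9.26, 11.4 and 7.12 FPKM in the controls and 5.04, 1.91, 7.59 and 4.40 FPKM in the knockouts. Here the groups overlapped, and the log2 differences were 0.68 for Nfil3 and -0.82 for Dbp (limma, adjusted p = 0.583 and 0.642). Without ChMKO C309 and F/F C310 together Nfil3 passed the adjustment (log2 0.67, limma, adjusted p = 0.0353), while in the other settings run its adjusted p was 0.484 or higher. Of 18 clock genes tested 2 were higher and 4 lower at an unadjusted p under 0.05, namely Nfil3 and Rora, and Dbp, Per3, Nr1d2 and Bhlhe40. The higher count was 1 without ChMKO C291 or C309 and 3 without F/F C292, the lower count was 2 without F/F C301 and 6 without F/F C310, and the fit of 24 libraries had 0 higher and 1 lower (limma). Arntl was at 1.91 ± 0.892 and 3.14 ± 1.38 FPKM and Per2 at 5.27 ± 2.18 and 4.78 ± 1.21 FPKM (SD, n = 4), which did not pass the test. The hour of tissue collection is not given for single mice in the sources used here, and its part was not tested.

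Markers of other cell types were followed because GC also holds vessels, nerve, blood, fat and immune cells. All 9 macrophage and immune markers tested were higher in ChMKO in the mean, with a median of 0.27, and C1qa, C1qb and Cd163 had an unadjusted p under 0.05. C1qa, a complement subunit made by resident macrophages, was at 5.08, 7.17, 6.71 and 5.10 FPKM in the controls and 7.42, 7.94, 7.46 and 9.05 FPKM in the knockouts, without overlap. Without C309 there were 2 and the median was 0.14, and without C309 and C310 together there were 0 (limma; none adjusted) and the median was 0.08, while all 9 differences were positive in both cases. The count was 1 without F/F C292, 2 without any one of ChMKO C293 and F/F C294 and C310, 4 without F/F C301, 5 without ChMKO C299 and 0 in the fit of 24 libraries. The summed FPKM of the list ranged from 54.0 to 67.1 in F/F and from 58.5 to 88.4 in ChMKO. Of 6 genes of the interferon-inducible p200 family, looked at after their values were seen, Ifi205, Ifi207, Ifi211 and Ifi204 were higher at an unadjusted p under 0.05 (log2 0.57, 0.40, 0.44 and 0.36; none adjusted), while Ifi203 and Mndal had log2 differences of -0.02 and -0.07 and did not pass. Ifi205 was at 2.44, 2.82, 3.07 and 2.61 FPKM in the controls and 4.03, 5.15, 4.28 and 4.71 FPKM in the knockouts (log2 0.57, standard error 0.0769, adjusted p = 0.104). These genes are closely related copies on chromosome 1 between which reads can be divided, and the 10 genes tested of the interferon list held none at an unadjusted p under 0.05 (limma; median -0.01).

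Blood markers had a median of 0.29 over 7 genes, with the summed FPKM between 77.9 and 102 in F/F and between 66.4 and 194 in ChMKO, the highest in mouse C291. Only Hba-a2 had an unadjusted p under 0.05, at 1.31 FPKM or less in all libraries. Without ChMKO C309, 5 of the 7 were higher at an unadjusted p under 0.05 (median 0.49), and without C309 and C310 together 3 (median 0.44). Without ChMKO C291 it was 1, with a median of 0.12. Of 10 adipocyte markers 0 had an unadjusted p under 0.05 (limma), with a sum of 540 to 576 FPKM in the controls and 539 to 647 FPKM in the knockouts. Most of that sum is Car3, which muscle fibers also express, at 482 ± 59.6 and 510.5 ± 49.9 FPKM (SD, n = 4). Adipoq, which is particular to fat cells, varied from 2.35 to 19.3 FPKM in F/F and from 3.36 to 9.29 FPKM in ChMKO. The median of the list, 0.07, was -0.23 without F/F C294 and 0.30 without F/F C310, where 1 was higher at an unadjusted p under 0.05. Fibroblast (19 tested, Fn1 higher), endothelial (10 tested, none), smooth muscle (6 tested, Rgs5 lower) and nerve markers (11 tested, S100b lower) had medians between -0.09 and -0.01. Each of these 3 calls was lost in fits with a single library left out, namely ChMKO C291 or C309 or F/F C292, C294 or C310 for Fn1, ChMKO C309 or F/F C294 or C310 for Rgs5, and ChMKO C291 or C299 or F/F C294, C301 or C310 for S100b. All 11 nerve markers were lower in ChMKO in the mean, and 5 of 11 without ChMKO C299. On chow all 11 were lower in the mean (median -0.68), 2 of them at an unadjusted p under 0.05. The part of these cells in the differences of other genes was not tested.

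The same genotypes were compared in normoxic and hypoxic mice of the same table, but the libraries of that table fall on opposite sides of a split that the labels do not explain. The first principal component of the 24 libraries held 61.6% of the variance and parted them 12 against 12. All 8 high-fructose libraries lay on one side together with the normoxic F/F mice c397 and c401 and the hypoxic F/F mice c360 and c361. All 8 normoxic and hypoxic ChMKO libraries and the other 4 F/F libraries lay on the other. Ddx3y, a Y-linked gene, was at 31.0 to 35.5 FPKM on the first side and 1.90 to 6.68 FPKM on the second. In normoxia and hypoxia the split therefore overlaps with genotype, and those contrasts are given for all 4 against 4 libraries and for the 4 ChMKO against the 2 F/F libraries of their own side. The high-fructose comparison lies wholly within one side. The normoxic and hypoxic contrasts within one side lie on the side opposite to the high-fructose libraries, so that in any difference between these genotype effects the side and the diet cannot be told apart. A comparison of diets among the F/F mice of one side was not made here.

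**Figure D4:**
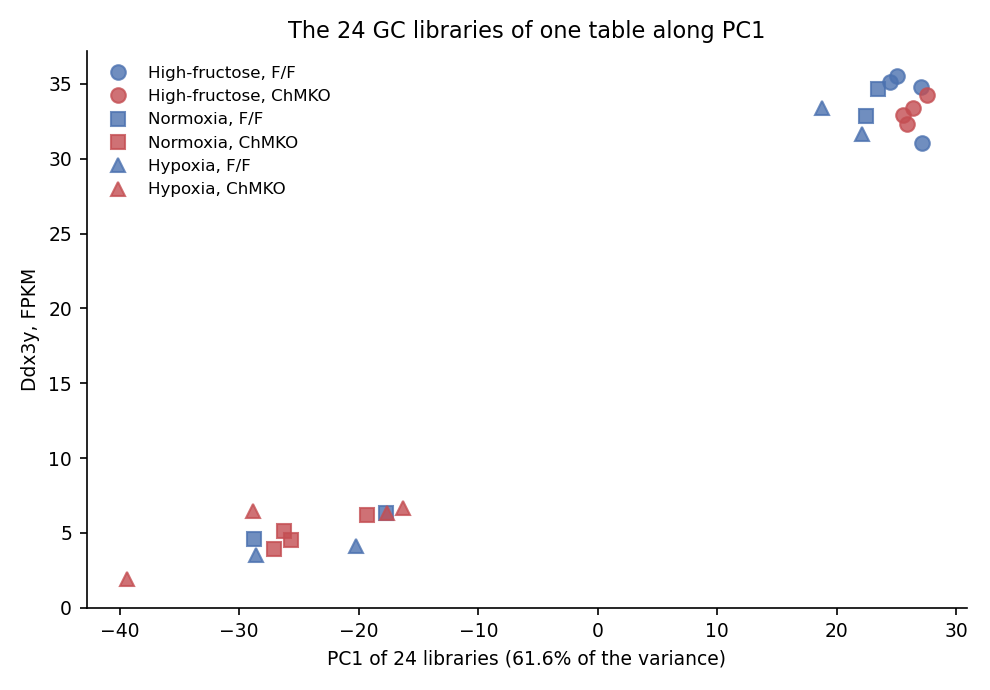
The 24 GC libraries of the table, with the first principal component (61.6% of the variance) on the x axis and the FPKM of Ddx3y on the y axis, where colors give the genotype and symbols the condition. The 8 high-fructose libraries lie together at 31.0 to 35.5 FPKM with 4 F/F libraries, and the 12 others lie on the far side at 1.90 to 6.68 FPKM.

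The fall of Mlxipl was present in all conditions. Its log2 difference was -1.16 in normoxia and -1.27 in hypoxia, or -1.12 and -1.248 within one side. In the 5 against 5 mice on chow it was -0.63 and did not pass the adjustment (limma). In chow-fed GC it was at 24.9 ± 4.10 and 15.7 ± 2.53 FPKM (SD, n = 5), a level from another table that is not comparable with the others. The difference between the high-fructose and the normoxic genotype effect was 0.24 (unadjusted p = 0.0602), or 0.20 (0.0868) with the normoxic contrast from its one side. Against hypoxia it was 0.35 (unadjusted p = 0.0101), or 0.33 (0.0283) with the hypoxic contrast from its one side, and none of these passed the adjustment (limma, lowest adjusted p = 0.451). The mean of ChMKO was 4.40 FPKM on the high-fructose diet, 3.30 FPKM in normoxia and 2.82 FPKM in hypoxia, and that of F/F 9.26, 8.63 and 8.21 FPKM.

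Dysf was higher in ChMKO under every condition. Its log2 difference was 0.42 in normoxia and 0.41 in hypoxia within one side, and 0.57 and 0.48 over all libraries. In chow-fed GC it was at 10.9 ± 0.531 in F/F and 15.8 ± 1.46 FPKM in ChMKO (SD, n = 5), a log2 difference of 0.50 without overlap (limma, adjusted p = 0.0536). The high-fructose effect differed from that in normoxia and hypoxia by -0.03 and -0.02 with standard errors of 0.160 and 0.230, where those contrasts were taken from their one side. Slc15a5 was likewise lower in each of them, by -0.92 in normoxia and -0.63 in hypoxia within one side and by -0.48 on chow, though none of these passed the adjustment.

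The genotype differences of the atrophy genes on the high-fructose diet were set beside those in the other conditions, and no test of a difference between effects passed the adjustment. Ddit4 had a log2 difference of 1.11 in normoxia over all libraries and 0.16 within one side, 0.17 and 0.04 in hypoxia, and 0.89 on chow, beside 1.05 on the high-fructose diet. Over all libraries, and so across the split, Trim63 was at 149 ± 34.4 and 212 ± 75.7 FPKM in normoxia and 179 ± 48.1 and 193 ± 38.8 FPKM in hypoxia (F/F and ChMKO, SD, n = 4). Its genotype effect on the high-fructose diet exceeded that in hypoxia, taken within its one side, by a log2 value of 1.07 with a standard error of 0.404 (limma, adjusted p = 0.999). Retreg1, looked at after its value was seen, was at 55.7 ± 10.7 and 48.3 ± 7.97 FPKM in normoxia and 83.5 ± 6.37 and 76.5 ± 5.63 FPKM in hypoxia (SD, n = 4), where the mean of ChMKO was the lower one. Those means cross the split, with F/F libraries of both sides and ChMKO libraries of only one side. The differences of the Retreg1 effect on the high-fructose diet from those in normoxia and hypoxia were 0.67 and 0.78 with those contrasts from their one side (limma, adjusted p = 0.999 for both). Ppargc1a, outside the list, was at 6.55 ± 1.104 and 4.83 ± 0.411 FPKM in normoxia (SD, n = 4). Its log2 difference was -0.61 in hypoxia over all libraries and 0.12 on chow. The normoxic and hypoxic values of Ppargc1a cross the split. Within one side no member of the regulator list was below -0.32 in normoxia or -0.53 in hypoxia. Nfil3 was at 29.2 ± 22.1 and 56.9 ± 2.30 FPKM in normoxia and 32.9 ± 9.97 and 36.0 ± 4.68 FPKM in hypoxia (SD, n = 4). Its log2 difference in normoxia was 1.29 over all libraries and 0.29 within one side, and in hypoxia 0.16 and -0.12. On chow Nfil3 was at 12.7 ± 3.31 in F/F and 23.2 ± 3.82 FPKM in ChMKO (SD, n = 5), a log2 difference of 0.84 without overlap (limma, adjusted p = 0.411), beside 0.68 on the high-fructose diet.

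By list, 0 of 24 atrophy genes in hypoxia (limma, unadjusted p under 0.05) and 1 in normoxia, Fkbp5, were higher within one side, beside 0.589% and 0.991% of all genes. Over all 4 against 4 libraries 1 in hypoxia, Gadd45a, and 0 in normoxia were higher, beside 3.95% and 4.65%. By sign, 16 of the 24 differences were positive in normoxia and 21 in hypoxia over all libraries (medians 0.11 and 0.19). Within one side 11 and 14 were positive (medians -0.01 and 0.01), and on chow 17 of 25 (median 0.06). On chow 5 of 25 were higher, Trim63, Mt1, Mt2, Cdkn1a and Fkbp5, beside 2.86% of all genes, so that Trim63, Mt1 and Cdkn1a were higher in both the chow and the high-fructose mice. The lower genes of fatty acid oxidation numbered 1 in normoxia and 0 in hypoxia within one side, beside 1.76% and 0.238% of all genes, 2 and 0 over all libraries, beside 6.48% and 1.32%, and 1 on chow, beside 1.77%. On chow 34 of 41 of these genes and 69 of 76 respiratory chain genes were nonetheless negative, with medians of -0.09 and -0.07. In normoxia 31 of 41 fatty acid genes were negative within one side (median -0.10) and 13 over all libraries (median 0.06), and in hypoxia 22 and 5 (medians -0.01 and 0.16). The respiratory chain genes were all positive in normoxia over 4 against 4 libraries, with a median of 0.28, and 53 of 76 were positive with a median of 0.03 within one side. In hypoxia 74 of the 76 were positive over all libraries (median 0.31) and 50 within one side (median 0.03). All 11 macrophage and immune markers tested on chow were higher in ChMKO in the mean (median 0.29), with C1qa, C1qb and Cd68 at an unadjusted p under 0.05. In normoxia all 9 were lower in the mean within one side (median -0.25), and 5 over all libraries (median -0.0007). In hypoxia all 9 were higher over all libraries (median 0.47), 3 of them at an unadjusted p under 0.05, beside 3.95% of all genes. Within one side 5 of the 9 were higher in hypoxia (median 0.04), with 0 at that limit (limma). Of the 11 nerve markers, 9 were negative in normoxia (median -0.28) and all were positive in hypoxia (median 0.496) within one side.

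Over all genes, 0 interactions of genotype with condition passed the adjustment against normoxia (63 by the fold criterion, 0.587%, and 1107 at an unadjusted p under 0.05) or against hypoxia (5 and 785). With the normoxic and hypoxic contrasts taken from their one side, opposite to the high-fructose libraries, they were 0, 13 and 395 against normoxia and 0, 7 and 249 against hypoxia. The high-fructose libraries enter both of these tests, which are therefore not independent.

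**Figure D5:**
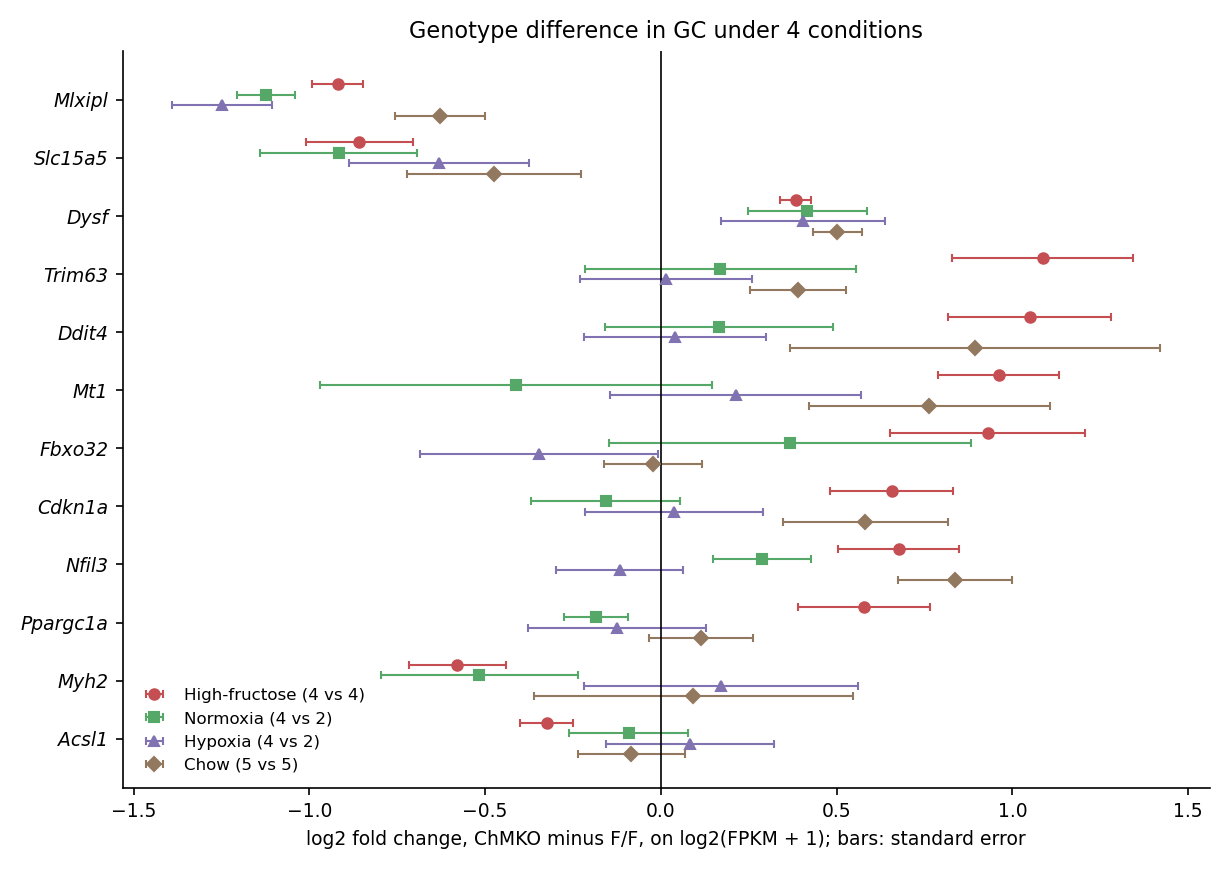
Genotype difference of 12 genes in GC (x axis, log2 fold change of ChMKO over F/F on log2(FPKM + 1), bars give the standard error) on the high-fructose diet (4 against 4 mice), in normoxia and hypoxia (each 4 ChMKO against the 2 F/F libraries on the same side of the first component) and on chow (5 against 5). Mlxipl and Slc15a5 are left and Dysf is right of 0 in all 4 conditions, whereas Trim63 is at 1.09 on the high-fructose diet and at 0.39 on chow.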

How the data were processed

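RNA from GC was sequenced on a NovaSeq 6000. The deposited FPKM values were made by the authors with fastp 0.18.0, HISAT2 2.1.0, Bowtie2 2.2.8, StringTie 1.3.1 and RSEM on GRCm39, per the submitters' processing notes, and the counting tool is not otherwise given in the sources used here. From these values log2(FPKM + 1) was computed, genes under a mean of 0.5 FPKM were left out, and genotypes were compared in R 4.3.3 with limma 3.58.1 (eBayes with trend, two-sided, Benjamini-Hochberg over all genes tested) on the 8 high-fructose libraries alone. A fold change on this scale understates the change of low genes. Repeated symbols were reduced to their most abundant entry (21936 symbols from 21959 entries). Whole reads were recovered from FPKM and gene length for 100% of values (tolerance 0.05 reads) and used for voom as an alternative. Columns with the authors' own comparisons were not used. Named genes are Mlxipl, Mlxip and Mlx, genes past the adjusted p or the study's criterion, for each of 25 lists the members past that criterion or, where there were none, up to 4 of lowest p, and the study's fiber markers. A pair of list members is not reported here and was left out of the list counts. The members and lists were chosen with earlier results of these data known. The procedure was tested on simulated data. Alternatives were the pseudocount, the filter, the scaling, voom, one fit of 24 libraries, no trend, and leaving out each library. Those on the split, on mice C309 and C310 and on list counts were chosen after seeing the data. Chow mice were tested within their own table. Exon and promoter sequences came from GENCODE and RefSeq.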

Additional observations from a re-analysis of the deposited data

Results flagged for a closer look

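In each group of 4 libraries the distance of the outermost value to its neighbor was divided by the range of the group, and ratios above Dixon's critical value for 4 samples are given here. Among 214 such checks of named genes 17 exceeded it, where chance gives about 1 in 20. ChMKO C309 was the outermost in 5, low for Ldhb (0.910), Esrrb (0.935) and Esam (0.867) and high for Hspa8 (0.852) and C1qb (0.875). F/F C310 was high for Acsl1 (0.898), Abcd3 (0.891) and Ckm (0.893), and its position on the second principal component also stood apart (0.893). F/F C301 was high for Pfkm (0.954), Tpm1 (0.856) and Chrne (0.974), where Chrne, the adult acetylcholine receptor subunit, was at 7.21 FPKM beside 5.38 to 5.43 FPKM in the other controls. F/F C294 was high for Myh1 (0.875), at 688 FPKM beside 417 to 451 FPKM, and low for Ddx3y (0.840). Of the remaining knockouts, mouse C293 was low for Eif2s3y (0.898), and mouse C299 low for Plin1 (0.837) and Pnpla3 (0.886) and high for Tnni2 (0.886).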

How the results depend on the processing

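No paired analysis was possible because the 2 high-fructose groups share no mouse number. Mlxipl kept its direction and passed the adjusted p under every alternative run, with log2 differences of -0.97 to -0.85 over the left-out libraries. The number of genes past the study's criterion, 2, was 8 with a pseudocount of 0.1, 10 with voom and 1 to 8 with single libraries left out. The number past the adjusted p, 2, was 1 in the fit of all 24 libraries, 1 without a trend, 1 with the side of the first component as a covariate and 1 with any single library left out, each time Mlxipl. Without mice C309 and C310 it was again 2, Mlxipl and Nfil3. The interaction count against normoxia, 63, was 197 with a pseudocount of 0.1, 41 above 5 FPKM, 212 with voom, 29 in the fit of 24 libraries, 24 with the covariate, 17 without mice C309 and C310, 13 with the normoxic contrast from one side and 34 to 46 with single libraries left out. The count against hypoxia, 5, was 47, 3, 10 with rescaled libraries, 86 with voom, 8 with the covariate and 7 to 10. Of the members called, the atrophy list had 7 to 11, the fatty acid list 7 to 17, the TCA list 2 to 7 and the respiratory list 9 to 24 with single libraries left out. In the fit of 24 libraries the last 3 had 1, 0 and 0, with the covariate 3, 1 and 1, and without mice C309 and C310 7, 2 and 6. The cause of these shifts was not tested, apart from the fewer samples. Rescaling libraries by their median ratio raised the share of higher genes among those at an unadjusted p under 0.05 from 39.4% to 46.9%. With 4 mice per group a permutation of single values cannot go below p = 0.0286.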
